A study of Mus musculus with 26 samples.

Results

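Mouse chromosome 6 had 1293 genes in the deposited count table, and 417 of them, the members of the set described here, were followed across embryonic stem cell clones. They were chosen by position and by level: the first chromosome entry was chromosome 6 and the mean level over 26 libraries was at least 8 CPM (a gene's counts relative to the total of its library), which held for 446 genes. Of those, 29 were left out by name (symbols starting Nduf, Cox, Atp, Mrp, Rp, Psm or Nop, and Nanog, Ccnd2, Slc2a3, Hk2, Suclg2, Asns, Evx1, Tet3, Zyx, Stk31 and Mcm2). The 417 were a subset of 24421 genes in the table, lay between 3498393 and 149563326 of mm10 chromosome 6, and had 215 genes on the plus and 202 on the minus strand. All 417 passed the filter on low counts. The lowest mean levels inside the threshold were 8.06 CPM for Il17ra and 8.07 CPM for Gng12, and the nearest genes outside it were Amn1 at 7.99 CPM and Snora7a at 7.92 CPM.

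RNA-seq was done on mouse embryonic stem cell (ESC) clones that lack ERR beta, the nuclear receptor made from the gene Esrrb, and in some of which the receptor was put back in altered forms. The study's title asks how ERR beta controls its target genes through contacts with DNA, with TFIIH (a general transcription factor) and with coactivators. WT_mock clones (5-2 and 5-5) had the wild-type genotype and no ectopic receptor. The other groups were ERR beta knockouts: KO_mock (12-1 and 12-3) had no ectopic receptor, KO_ERRb_wt (8-3 and 8-4) carried wild-type ERR beta, and KO_ERRg_wt (14-1-10 and 14-11) carried wild-type ERR gamma, the product of Esrrg. KO_ERRb_DBDm3 (9-6 and 9-8) carried a form deficient in DNA binding, KO_ERRb_DBDm6 (10-24 and 10-26) a form deficient in TFIIH binding and KO_ERRb_AF2M6 (32-25 and 32-31) a form deficient in coactivator binding. All groups received doxycycline, the inducer of the constructs, at 2 µg/ml for 3 days in N2B27 medium containing PD and CH, which block the kinases MEK and GSK3 respectively. The growth protocol adds the cytokine LIF to this medium and the design text does not. The unit of replication was the clone, with n = 2 in each group and 2 libraries per clone, or 1 in KO_ERRg_wt. Levels of single genes below are CPM of a clone, scaled by TMM factors, with the clones in the order just given.

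ESC lines are known to gain or lose whole chromosomes during long culture and cloning, and mouse ESCs tolerate such changes. For most autosomal genes the amount of RNA follows the number of gene copies, since few mammalian genes have feedback that restores their level. Chromosome 6 of the mouse carries a stretch with Nanog, Dppa3 and Gdf3, genes of early embryonic cells, and clusters of imprinted genes, which are expressed from a single parental copy, around Peg10 and Mest. DNA was not measured in the files used here, so whether the copy number of chromosome 6 moved with the RNA levels below was not tested. In bulk RNA, fewer cells with a level and less RNA per cell cannot be told apart.

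ERR proteins bind DNA at elements built on the core AAGGTCA, so the promoters of members were searched for it on both strands, with 250 bases before and 50 after each start (RefSeq, GRCm38.p6). Promoters were matched by symbol for 335 of the 417 members, and 11 of these genes (3.28%) held the core, against 1454 of 27025 genes (5.38%) in the whole promoter table. The longer TCAAGGTCA, which contains the core, was in 0 of the 335 and in 126 of the 27025 (0.466%). The whole promoter table was not filtered by level as the members were, so nothing is read from these differences. Members of 2 kinds are named at length below, those that stayed above their chromosome and those that fell further than it, and the promoters shown here belong to such genes. Frmd4b, a scaffold protein gene that fell further, has the core once at chr6:97459237-97459536, minus strand. Its other listed promoters (chr6:97487771-97488070 and chr6:97617608-97617907) lack the core. Which start these cells use was not tested. Tpi1, the glycolytic enzyme triosephosphate isomerase, stayed above its chromosome and has the core on the opposite strand at chr6:124814109-124814408, minus strand. Capitals mark the core or its complement.
Frmd4b: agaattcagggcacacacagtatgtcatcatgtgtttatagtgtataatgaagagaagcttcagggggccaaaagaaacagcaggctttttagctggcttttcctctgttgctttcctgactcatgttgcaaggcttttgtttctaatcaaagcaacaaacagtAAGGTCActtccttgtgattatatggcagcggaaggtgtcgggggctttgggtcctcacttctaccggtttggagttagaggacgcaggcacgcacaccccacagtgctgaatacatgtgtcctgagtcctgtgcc
Tpi1: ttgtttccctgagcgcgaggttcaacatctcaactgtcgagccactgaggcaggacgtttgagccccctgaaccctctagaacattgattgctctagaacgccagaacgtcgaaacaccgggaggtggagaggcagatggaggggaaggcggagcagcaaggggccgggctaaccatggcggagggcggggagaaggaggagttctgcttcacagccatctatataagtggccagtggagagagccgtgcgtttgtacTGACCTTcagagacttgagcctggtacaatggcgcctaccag

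Promoters of the members were rich in CG, the dinucleotide that DNA methylation acts on, with a median of 22 CG in 300 bases against 7 over the whole promoter table. At least 10 CG were present for 299 of 335 members (89.3%) and for 11915 of 27025 genes (44.1%). Members had a mean of at least 8 CPM and the whole table had no threshold on level. The sets are thus unlike in level, and nothing is read from these gaps. The medians were 21 for 65 matched members called above their chromosome and 21 for 62 called below it. The start of Slc4a5, a bicarbonate transporter gene that rose while its chromosome fell, had 6 CG (chr6:83237125-83237424, plus strand), and that of Epha1, a receptor gene that fell furthest, had 14 (chr6:42373219-42373518, minus strand). Capitals mark CG in these sequences.
Slc4a5: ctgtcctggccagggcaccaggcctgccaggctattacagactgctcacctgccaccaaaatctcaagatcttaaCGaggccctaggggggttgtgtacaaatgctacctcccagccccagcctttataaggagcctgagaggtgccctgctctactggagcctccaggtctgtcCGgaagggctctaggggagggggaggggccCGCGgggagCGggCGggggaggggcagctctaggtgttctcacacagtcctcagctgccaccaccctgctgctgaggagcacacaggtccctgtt
Epha1: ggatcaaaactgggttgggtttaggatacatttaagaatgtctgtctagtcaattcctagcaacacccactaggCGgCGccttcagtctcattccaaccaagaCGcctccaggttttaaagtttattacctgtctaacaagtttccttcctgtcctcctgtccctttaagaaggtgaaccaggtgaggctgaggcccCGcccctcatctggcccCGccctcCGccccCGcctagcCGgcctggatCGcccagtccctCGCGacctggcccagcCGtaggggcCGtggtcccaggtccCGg

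The library totals ran from 21276790 to 30021667 counts. Esrrb (chromosome 12) was at 562 to 636 CPM of library total in WT_mock and at 267 to 281 CPM in KO_mock, so reads of the locus remained in the knockout, and at 416 to 567 CPM in the clones carrying any ectopic receptor. That range includes KO_ERRg_wt, at 470.0 to 477 CPM, whose labelled construct is ERR gamma and not ERR beta. In the clones with an ERR beta construct, reads of the construct and of the locus cannot be told apart in these counts. Why Esrrb reads were higher in KO_ERRg_wt than in KO_mock was not tested. Esrrg (chromosome 1) was at 126 and 229 CPM in KO_ERRg_wt and had at most 10 counts in any other library. The sum of 6 ESC markers (Pou5f1, Sox2, Klf4, Tfcp2l1, Dppa5a and Tdgf1) lay between 2467 and 3484 CPM over the clones. Summed markers of other cells were lower, at 1.74 to 7.11 CPM for 4 fibroblast feeder genes, 0.208 to 5.52 CPM for 3 primitive endoderm genes, 3.25 to 13.5 CPM for 3 trophoblast genes and 15.9 to 37.3 CPM for 3 neural genes, of which Nes alone was at 13.5 to 35.6 CPM. Sox7 and Elf5 were at 0 in some clones. The ESC sum was 2784 to 3484 CPM in the clones with altered ERR beta or ERR gamma and 2467 to 2815 CPM in the others, and the part of cell state in the results below was not tested. The variance between libraries of the same clone was 1.9 to 8.16 times the variance that sampling gives, and that between libraries of different clones of a group 2.52 to 19.3 times. The different-clone values were highest in KO_ERRb_DBDm3 (13.6 to 19.3) and were 2.54 to 4.39 in KO_mock. No library was a copy of another. The labels do not say whether clones of a group share a parent, so p-values below measure the spread between these clones.

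Expression of the chromosome 6 members fell into 3 levels by clone. The members' median log2 ratio to the mean of the KO_mock clones was −0.076 and −0.058 in WT_mock and −0.022 and 0.012 in KO_ERRb_wt, so both groups lay within 0.08 of KO_mock. It was −0.95 and −0.97 in KO_ERRb_DBDm6 and −0.96 and −0.96 in KO_ERRb_AF2M6. These medians correspond to 51.7%, 51.1%, 51.4% and 51.6% of the KO_mock level. Both KO_ERRg_wt clones were intermediate, at −0.40 and −0.41, or 75.9% and 75% of KO_mock. The KO_ERRb_DBDm3 group was split: clone 9-6 was at −0.40 (75.6%), like KO_ERRg_wt, and clone 9-8 at −0.95 (51.9%), like the TFIIH-binding and coactivator-binding deficient clones.

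**Figure D1:**
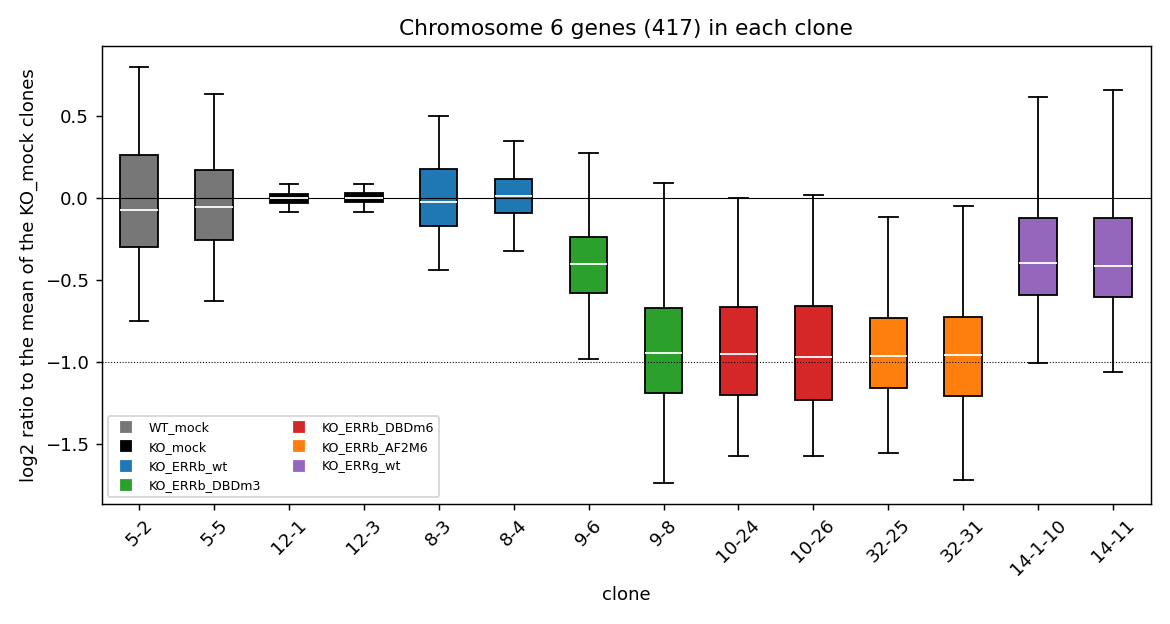
Log2 ratio of 417 chromosome 6 genes to the mean of the KO_mock clones (y axis) in each of 14 clones (x axis, coloured by group). Boxes span the quartiles, white lines are medians, whiskers reach the 5th and 95th percentiles, and dotted and solid lines mark −1 and 0. The medians sit near 0 in 6 clones, near −0.40 in 3 and near −0.95 in 5.

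The 2 libraries of a clone gave member medians that differed by at most 0.0386 on the log2 scale, far less than the gaps between the levels. As a share of all counts, the members took 6.88% to 6.93% in WT_mock, 7.11% to 7.2% in KO_mock and 7.02% to 7.11% in KO_ERRb_wt. The share was 5.41% to 5.43% in KO_ERRg_wt, 3.58% to 3.8% in KO_ERRb_DBDm6 and 3.71% to 3.82% in KO_ERRb_AF2M6. In KO_ERRb_DBDm3 it ran from 3.7% to 5.57%. With 2 clones against 2, an exact two-sided permutation test of a group's median cannot go below p = 0.333, so the clone medians are given without a test. Against WT_mock in place of KO_mock the 5 lowest clones were at −0.89 to −0.92, and the 3 intermediate clones at −0.31 to −0.39.

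The shift was present along the whole chromosome. Member medians were taken in 15 windows of 10 Mb, of which 10 held at least 20 members. In those 10 windows they ran from −1.04 to −0.80 in clone 10-24, from −1.12 to −0.80 in 10-26, from −1.12 to −0.82 in 32-25 and from −1.10 to −0.85 in 32-31. Clone 9-8 ran from −1.16 to −0.78, clone 9-6 from −0.54 to −0.30, and the ERR gamma clones 14-1-10 and 14-11 from −0.54 to −0.23 and from −0.52 to −0.25. No window of these 8 clones had a median at or above 0. The intermediate clones were therefore low over all 15 windows rather than fully low over some of them. Window 7 of clone 9-8 stood at −0.43, but it held only 6 members.

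**Figure D2:**
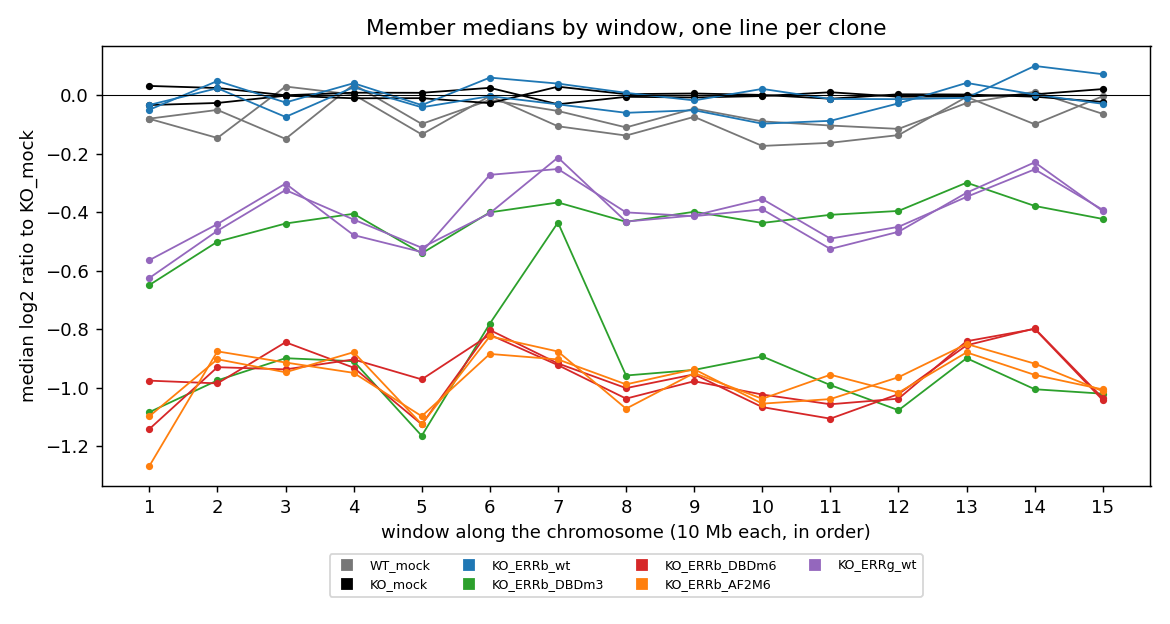
Median log2 ratio of the members to KO_mock (y axis) in 15 consecutive windows of 10 Mb along chromosome 6 (x axis), with 1 line per clone coloured by group. Lines of the 5 lowest clones and of the 3 intermediate clones stay apart from 0 in every window, and window 7 rests on 6 members.

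Most other chromosomes stayed near the KO_mock level. Over 7867 genes of the autosomes other than 6, 8 and 14 at the same CPM threshold, clone medians lay between −0.07 and 0.048. Chromosome 8 (535 genes) was lower in the same 8 clones, at −0.56 to −0.45, and chromosome 14 (329 genes) was higher in both WT_mock clones, at 0.58 and 0.58. The largest absolute median of any chromosome other than 6, 8 and 14 was 0.183. Clones 9-6 and 9-8 differed on chromosome 6 but were close on chromosome 8, at −0.53 and −0.56. What set the chromosome levels was not tested.

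**Figure D3:**
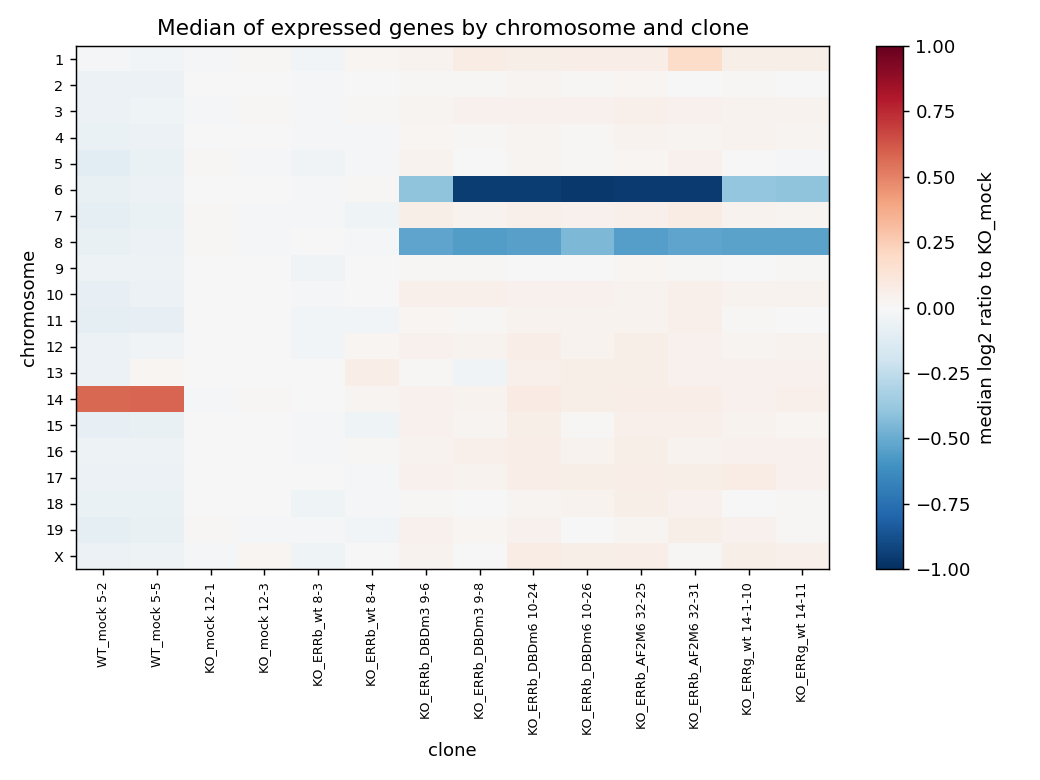
Median log2 ratio to KO_mock (colour) of genes with a mean of at least 8 CPM on each chromosome (rows) in each clone (columns). Chromosome 6 is blue in 8 clones at 2 depths, chromosome 8 is blue in the same 8 clones, and chromosome 14 is red in the WT_mock clones.

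Single members mostly followed the median of their clone. The interquartile range of the members was 0.537 log2 units in clone 10-24, 0.568 in 10-26, 0.431 in 32-25, 0.483 in 32-31 and 0.519 in 9-8. For the 7867 genes of the other autosomes it was 0.448, 0.5, 0.413, 0.43 and 0.443 in the same clones, so the members varied slightly more. The members above 0, and thus at or over the KO_mock level, numbered 21, 22, 14, 19 and 27 of 417 in those 5 clones. They numbered 42 in 9-6, 79 in 14-1-10 and 84 in 14-11. Across the 417 members the shift was only weakly related to level, with Spearman's rho between −0.06 and 0.06 in the 5 lowest clones (members share the same libraries and are not independent).

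In KO_ERRb_DBDm6 against KO_mock, the median member fell to 51.2% of the control (median log2 fold change −0.96, against 0.0019 over all 15238 genes tested). Of the 417 members 360 were lower and 8 higher (edgeR quasi-likelihood test, Benjamini-Hochberg adjusted p below 0.05), while 20.6% of all tested genes were lower and 20.8% higher. KO_ERRb_AF2M6 gave 370 lower and 5 higher with a median of −0.96, against 19.1% and 18.1% of all tested genes. These comparisons share the KO_mock clones. The 8 members higher in KO_ERRb_DBDm6 became 5 without clone 12-1 and 4 without 12-3, and the 5 in KO_ERRb_AF2M6 became 3 without 12-3 and 3 without 32-31. The members with the highest levels per kilobase of exon did not move alike. Trh, the precursor of thyrotropin-releasing hormone, had the highest and was lower by more than the median member (−1.58 ± 0.283, adjusted p = 0.00127 in KO_ERRb_DBDm6, and −1.40 ± 0.281, adjusted p = 0.00282 in KO_ERRb_AF2M6), whereas Hist4h4, a histone H4 gene, was not called (−0.36 ± 0.207, adjusted p = 0.19, and −0.27 ± 0.206, adjusted p = 0.336). Gapdh, Cct7 and Fkbp4 lay between these. Gapdh, a glycolytic enzyme, was at 2064 and 1999.9 CPM in KO_mock, 1282 and 1263 in KO_ERRb_DBDm6 and 1251 and 1328 in KO_ERRb_AF2M6, and its log2 fold changes were −0.68 ± 0.0858, adjusted p = 0.000153, and −0.66 ± 0.0858, adjusted p = 0.000209. Cct7, a subunit of the chaperonin that folds actin and tubulin, went from 1360.2 and 1369 CPM to 860.2 and 860.4 and 821 and 849.9 CPM. The co-chaperone Fkbp4 went from 1614 and 1579 CPM to 968 and 1004 and 931 and 870.1 CPM.

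KO_ERRb_DBDm3 against KO_mock averaged 2 unlike clones. The members' median was −0.65, with 315 lower and 6 higher, against 13.3% and 12.4% of all tested genes. Without clone 9-6 the median was −0.95 and 361 were lower, and without 9-8 it was −0.40 with 250 lower and 10 higher. The number lower was 196 without 12-1 and 186 without 12-3. In KO_ERRg_wt against KO_mock the median was −0.41, with 206 members lower and 24 higher, against 18.3% and 20% of all tested genes. The 206 fell to 116 without 12-1, 127 without 12-3, 107 without 14-1-10 and 115 without 14-11, and the 24 to 13, 14 and 15 without the first 3 of these. Trh was at 1454 and 1982 CPM in WT_mock, 4279 and 4131 in KO_mock and 2412 and 2568 in KO_ERRb_wt. It was lower in both ERR gamma clones (1033 and 896 CPM; −2.12 ± 0.288, adjusted p = 0.000292) than in KO_mock, and at 3466 and 1766 CPM in KO_ERRb_DBDm3, 1532 and 1278 in KO_ERRb_DBDm6 and 1934 and 1251 in KO_ERRb_AF2M6.

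KO_ERRb_DBDm6 and KO_ERRb_AF2M6 were then set against each other. No member was called (0 lower and 0 higher), nor was any other gene (0% and 0% of 15238 tested), and 37 members had an unadjusted p below 0.05. DESeq2 called 1 lower and 3 higher. Without clone 32-25, edgeR called 1 lower and 7 higher. The median difference of the members was −0.0078. The smallest p belonged to Aldh1l1, a folate enzyme, at 33.4 and 34.2 CPM against 21.8 and 16.6 CPM (0.81 ± 0.15, adjusted p = 0.187), followed on the higher side by Scrn1 (0.93 ± 0.243, adjusted p = 0.23), Zfp800 (0.45 ± 0.124) and Ica1 (0.80 ± 0.243). On the lower side were Cttnbp2, a cortactin-binding protein (−0.86 ± 0.219, adjusted p = 0.23), Tmem43 (−0.35 ± 0.109), the aldo-keto reductase Akr1b3 (−0.46 ± 0.152) and the EGF receptor substrate Eps8 (−0.32 ± 0.109). The predicted gene Gm6644, also a member, had the same levels as Akr1b3 in clones 9-6 and 9-8 (221.8 and 153.8 CPM). Whether both rest on the same reads was not tested.

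To ask which members departed from the shift, the fit was repeated with each clone's own chromosome median as an offset, so that a gene is compared with its chromosome. By construction this centres the members near 0. In KO_ERRb_DBDm6, 106 members were then higher and 92 lower than their chromosome, against 20% and 18.3% of all tested genes. In KO_ERRb_AF2M6 there were 89 higher and 82 lower, against 16.3% and 16.2%. KO_ERRb_DBDm3 had 65 higher and 58 lower, against 11.2% and 9.42%, and KO_ERRg_wt 109 higher and 77 lower, against 20% and 17%. Members called higher in both KO_ERRb_DBDm6 and KO_ERRb_AF2M6 are called escaping members here, and they numbered 78 of 417 (18.7%), against 13.2% of all tested genes. Those called lower in both numbered 71 (17%), against 12.4%. The tested genes include many below the 8 CPM at which members start, so the sets are unlike in level and nothing is read from the gap between these shares.

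These counts depended on the control clones. Without 12-1 there were 47 escaping members and 37 called lower in both, without 12-3 there were 50 and 36, and without 32-31 the 71 called lower in both became 46. In KO_ERRb_DBDm6 the 92 lower became 56 without 12-1, 60 without 12-3, 60 without 10-24 and 56 without 10-26. For KO_ERRb_AF2M6 the 89 higher became 53 without 12-1 and 56 without 12-3, and the 82 lower became 47, 46 and 49 without 12-1, 12-3 and 32-31. In KO_ERRb_DBDm3 the counts higher and lower were 20 and 15 without 12-1, 20 and 22 without 12-3, 98 and 96 without 9-6, and 43 and 30 without 9-8. For KO_ERRg_wt the 109 higher became 68 without 12-1, and the 77 lower became 47, 47, 48 and 48 without 12-1, 12-3, 14-1-10 and 14-11.

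Escape was mostly partial. The median log2 fold change of the 78 escaping members was −0.36 in KO_ERRb_DBDm6 and −0.41 in KO_ERRb_AF2M6, and 37 of them were still called lower than KO_mock in both groups. In both groups 11 had a log2 fold change above 0, and 25 had one above −0.25, against 11 and 27 of all 417 members. The 71 called lower in both had medians of −1.36 and −1.32. Escaping members had a median mean level of 76.5 CPM, those called lower in both 54.3 CPM and the other 268 members 59.9 CPM, and median exon lengths were 2999, 3651 and 3059 bp. Every 10 Mb window except window 11 held at least 1 escaping member, with the most in window 13 (13 of 52), window 9 (12 of 60) and window 4 (9 of 43). Clones 9-8 and 9-6, which carry the same construct, were not in the comparisons that chose these sets. The fit estimated the spread from all clones, so the sets are not independent of these clones. From 9-6 to 9-8 the median log2 difference was −0.40 for escaping members, −0.57 for other members and −0.68 for those called lower in both, and 68 of 78, 244 of 268 and 70 of 71 were lower in 9-8. With 1 clone on each side this comparison has no test. In the ERR gamma clone 14-1-10, which shares the KO_mock reference, the medians of the same sets were −0.023, −0.41 and −0.65, and in WT_mock clone 5-2 they were 0.039, −0.076 and −0.15.

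The largest departures above the chromosome belonged to Ccdc136 and Slc4a5, which rose while the chromosome fell. Ccdc136, a coiled-coil membrane protein gene (29398926 to 29426995, plus strand), was at 24.8 and 20.4 CPM in WT_mock, 23.6 and 24.9 in KO_mock and 18.1 and 14.5 in KO_ERRb_wt. It was at 72.3 and 84.9 CPM in KO_ERRb_DBDm3, 78.1 and 77 in KO_ERRb_DBDm6, 88.2 and 78.8 in KO_ERRb_AF2M6 and 43.3 and 44.2 in KO_ERRg_wt, with no overlap between these 4 groups and the first 3. Against its chromosome the difference was 2.64 ± 0.221 in KO_ERRb_DBDm6 (adjusted p = 2.82e-05) and 2.74 ± 0.221 in KO_ERRb_AF2M6 (adjusted p = 3.63e-05) on the log2 scale. Slc4a5, a sodium bicarbonate cotransporter whose promoter is printed above (83237375 to 83304945, plus strand), was at 46.3 and 64.6 CPM in WT_mock, 35.5 and 34.4 in KO_mock and 25.1 and 25.7 in KO_ERRb_wt. Its levels were 76.3 and 98.1 CPM in KO_ERRb_DBDm3, 93.3 and 72.2 in KO_ERRb_DBDm6, 105 and 112 in KO_ERRb_AF2M6 and 54.5 and 81.8 in KO_ERRg_wt, and both WT_mock clones lay above both KO_mock clones. The difference from its chromosome was 2.20 ± 0.288 in KO_ERRb_DBDm6 (adjusted p = 0.000367) and 2.59 ± 0.292 in KO_ERRb_AF2M6 (adjusted p = 0.000223).

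Trim24, a bromodomain protein that acts as a cofactor of nuclear receptors and limits p53, kept nearly the same level in every knockout clone. Its levels were 193 and 191 CPM in KO_mock, 195 and 203 in KO_ERRb_wt and 188 and 196 in KO_ERRb_DBDm3. In the other groups they were 180.4 and 204 CPM in KO_ERRb_DBDm6, 185 and 189 in KO_ERRb_AF2M6 and 199.9 and 196 in KO_ERRg_wt, and 226 and 223 CPM in WT_mock. Over the 12 knockout-derived clones its log2 ratios to KO_mock ran from −0.091 to 0.088, a range of 0.179, the smallest of the 417 members, with Zfp422 next at 0.466 and the NuRD remodeller Chd4 at 0.476. This member was singled out after its values were seen. Relative to its chromosome it was higher by 0.96 ± 0.143 in KO_ERRb_DBDm6 (adjusted p = 0.000619) and 0.92 ± 0.142 in KO_ERRb_AF2M6 (adjusted p = 0.000972).

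Among other escaping members with large departures, values are given as the log2 difference from the chromosome in KO_ERRb_DBDm6 and KO_ERRb_AF2M6. Dppa3, also called Stella, a maternal and germline protein that protects DNA methylation in the zygote, departed by 1.32 and 1.68. Parp11, a mono-ADP-ribosyltransferase, departed by 1.80 and 1.84 at 6.94 and 6.49 CPM in KO_mock and 12.2 and 12 CPM in KO_ERRb_DBDm6. Gng12, a G protein gamma subunit, departed by 1.91 and 1.72, with only 4.57 and 3.85 CPM in KO_mock. Prickle2, a planar cell polarity protein, departed by 1.57 and 1.27 and Ccdc91, a Golgi trafficking accessory protein, by 1.14 and 1.33. The zinc finger antiviral protein gene Zc3hav1 departed by 1.09 and 1.24, and the transcription factor gene Klf15 by 1.19 and 1.05. Ldhb, the lactate dehydrogenase B subunit, departed by 1.15 and 1.02 and was at 546 and 524 CPM in KO_mock, 623 and 597 in KO_ERRb_DBDm6 and 571 and 543 in KO_ERRb_AF2M6. Lrig1, a negative regulator of EGF receptors, departed by 0.94 and 0.98 and stayed level, at 76.1 and 78 CPM in KO_mock, 77 and 75.3 in KO_ERRb_DBDm6 and 74.8 and 82.5 in KO_ERRb_AF2M6. Adjusted p in these 9 genes ran from 2.10e-05 to 0.0047.

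**Figure D4:**
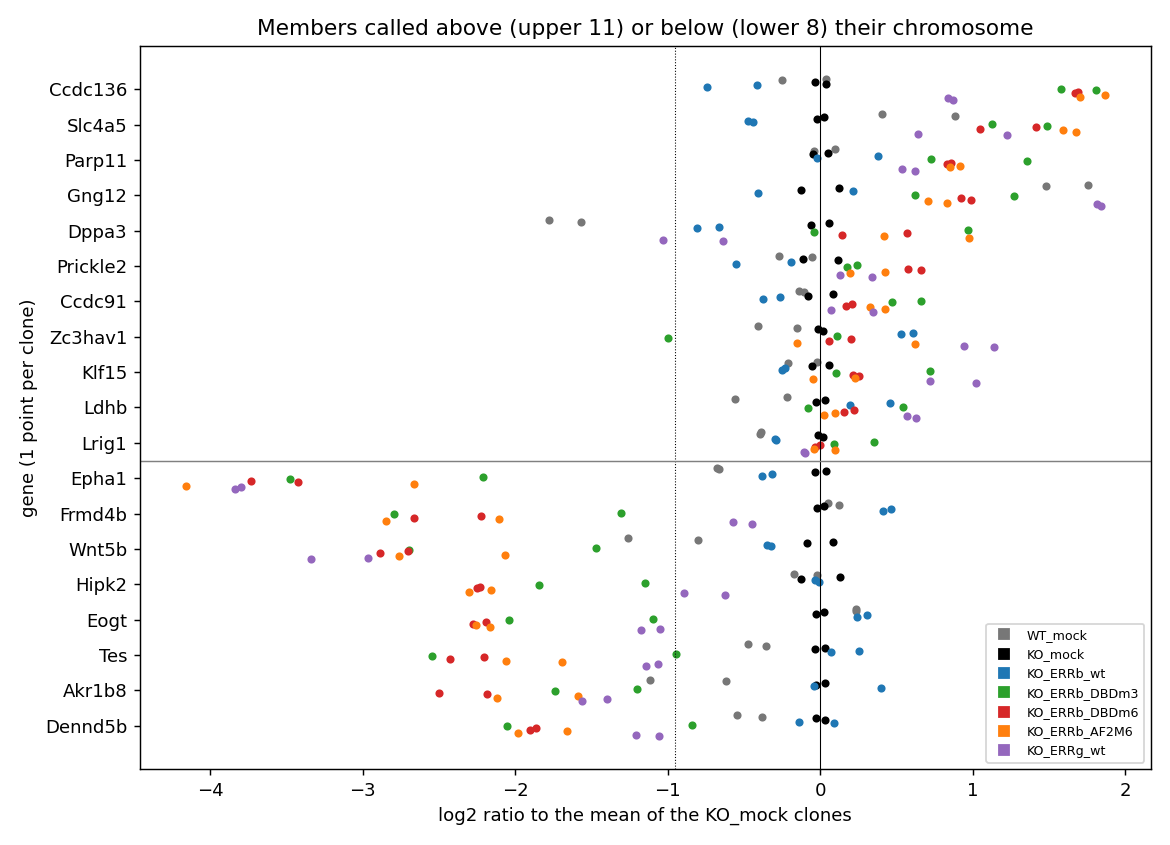
Log2 ratio to the mean of the KO_mock clones (x axis) for 11 of the escaping members and the 8 members called lower, chosen for large departures (y axis), 1 point per clone, coloured by group. The solid line marks 0, the dotted line the median of the 5 lowest clones, and points of KO_ERRb_DBDm6 and KO_ERRb_AF2M6 lie right of the dotted line in the upper 11 genes and left of it in the lower 8.

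Escape in Zc3hav1 was not shared by clone 9-8, where it was at 30.9 CPM against 66.5 CPM in 9-6 and 61.1 and 62.4 CPM in KO_mock. Gng12 was at 14.2 and 11.7 CPM in WT_mock, above every clone of KO_ERRb_DBDm6 (7.97 and 8.33 CPM) and KO_ERRb_AF2M6 (6.85 and 7.47 CPM). When WT_mock replaced KO_mock in the offset fit, a setting chosen after the data were seen, 86 of 417 members were higher in both groups, where 15.7% of all tested genes were called, and 91 were lower, where 19.4% of all tested genes were. Of the 78 escaping members 49 were among the 86 (62.8% of the former and 57% of the latter). Of the 71 called lower in both, 43 were among the 91 (60.6% and 47.3%). All of the 11 escaping members from Ccdc136 to Lrig1 in the plot by gene, except Gng12 were called against WT_mock too, and so were Epha1, Frmd4b, Hipk2 and Eogt, but not Wnt5b, Tes, Akr1b8 and Dennd5b.

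Members that fell further than their chromosome were led by Epha1, an ephrin receptor tyrosine kinase (42358487 to 42373268, minus strand, promoter printed above). Its levels were 43.2 and 43.7 CPM in WT_mock, 71 and 67.4 in KO_mock and 55.6 and 53.2 in KO_ERRb_wt. In the remaining groups they were 14.9 and 6.19 CPM in KO_ERRb_DBDm3, 5.18 and 6.43 in KO_ERRb_DBDm6, 10.9 and 3.86 in KO_ERRb_AF2M6 and 4.95 and 4.81 in KO_ERRg_wt, all below the first 3 groups, and the ERR gamma clones were as low as the lowest receptor mutants. Against its chromosome Epha1 fell by 2.61 ± 0.373 in KO_ERRb_DBDm6 (adjusted p = 0.000591) and 2.27 ± 0.364 in KO_ERRb_AF2M6 (adjusted p = 0.00136). Wnt5b, a secreted Wnt ligand, was at 116 and 104 CPM in KO_mock, 16.9 and 14.8 in KO_ERRb_DBDm6, 26.2 and 16.2 in KO_ERRb_AF2M6 and 14 and 10.8 in KO_ERRg_wt, with departures of −1.84 and −1.42. Frmd4b, a scaffold of cell junctions, departed by −1.48 and −1.47, and was at 24.8 and 27 CPM in KO_ERRg_wt against 37.5 and 36.3 in KO_mock. The kinase Hipk2 departed by −1.29 and −1.28, Eogt, a glycosyltransferase of the endoplasmic reticulum, by −1.28 and −1.26, and the focal adhesion protein gene Tes by −1.36 and −0.91. Akr1b8, an aldo-keto reductase, departed by −1.38 and −0.87 and Dennd5b, a Rab regulator, by −0.93 and −0.85. For these 7 genes adjusted p ran from 2.19e-05 to 0.021. The call of Tes in KO_ERRb_AF2M6 was lost without 12-1, 12-3 or 32-25 and with no filter on low counts, and that of Akr1b8 without 32-31.

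The imprinted genes differed among themselves. Of 16 listed, 6 were members, and against KO_mock all 6 were lower in both KO_ERRb_DBDm6 and KO_ERRb_AF2M6 (medians −1.03 and −1.26, members −0.96 in each). Relative to the chromosome, 2 were higher and 1 lower in KO_ERRb_DBDm6, 1 higher and 0 lower in KO_ERRb_AF2M6, 0 higher and 2 lower in KO_ERRb_DBDm3, and 2 higher and 2 lower in KO_ERRg_wt. Peg10, a paternally expressed gene derived from a retrotransposon (4747306 to 4760516), was at 497 and 644 CPM in WT_mock, 1306 and 1063 in KO_mock and 646 and 588 in KO_ERRb_wt. Its levels were 480.0 and 219.8 CPM in KO_ERRb_DBDm3, 265 and 327 in KO_ERRb_DBDm6, 563 and 468 in KO_ERRb_AF2M6 and 131 and 98 in KO_ERRg_wt, lowest in the ERR gamma clones, where it fell below its chromosome (−2.98 ± 0.232, adjusted p = 2.37e-05). Its neighbour Sgce, a sarcoglycan that is also paternally expressed, was at 36.5 and 34.2 CPM in KO_mock, 16.5 and 7.49 in KO_ERRb_DBDm3 and 13.2 and 20.7 in KO_ERRb_DBDm6, and at 16.3 and 12.1 in KO_ERRb_AF2M6 and 13.1 and 7.61 in KO_ERRg_wt. Sgce was below its chromosome in KO_ERRg_wt (−1.37 ± 0.306, adjusted p = 0.00617) and KO_ERRb_DBDm3 (−0.96 ± 0.294, adjusted p = 0.0438).

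Mest, a paternally expressed hydrolase-like gene (30733506 to 30748466), differed within a group. It was at 128 and 678 CPM in clones 8-3 and 8-4 of KO_ERRb_wt, against 374 and 345 in KO_mock and 520.4 and 596 in WT_mock. In the 8 shifted clones it was between 66.6 and 129 CPM, and its difference from KO_mock was −2.21 ± 0.606, adjusted p = 0.0151 in KO_ERRb_DBDm6. Against its chromosome Mest was not called in any group, with −1.25 ± 0.599, adjusted p = 0.13 in KO_ERRb_DBDm6. Copg2, a coat protein subunit on the strand opposite Mest whose gene end overlaps it, was at 235 and 198 CPM in WT_mock, 129 and 138 in KO_mock and 189 and 166 in KO_ERRb_wt. It was at 113 and 80.6 CPM in KO_ERRb_DBDm3, 87.6 and 102 in KO_ERRb_DBDm6, 72.9 and 63.6 in KO_ERRb_AF2M6 and 162 and 160.1 in KO_ERRg_wt, and above its chromosome in KO_ERRb_DBDm6 (0.46 ± 0.11, adjusted p = 0.00688; lost without 12-1 or 10-26) and KO_ERRg_wt (0.66 ± 0.11, adjusted p = 0.000962). Herc3, an E3 ligase gene, escaped, with differences of 0.52 and 0.44 in KO_ERRb_DBDm6 and KO_ERRb_AF2M6, and Ppp1r9a, the actin-binding neurabin, was at 42.4 and 48.8 CPM in KO_mock and 19.8 and 11 in KO_ERRb_AF2M6.

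**Figure D5:**
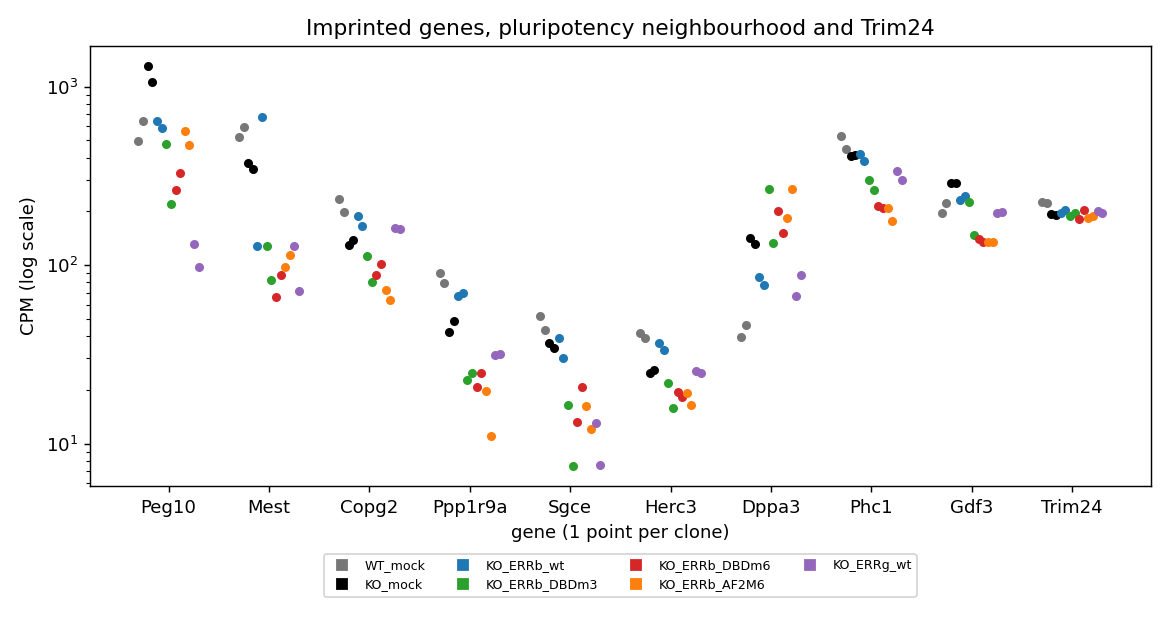
CPM of 6 imprinted members, 3 members near Nanog and Trim24 (x axis) in each clone, coloured by group, on a log scale (y axis). Peg10 is lowest in the KO_ERRg_wt clones, Sgce in 1 clone each of KO_ERRb_DBDm3 and KO_ERRg_wt, Mest differs between the KO_ERRb_wt clones, Dppa3 is highest in clones of KO_ERRb_DBDm3 and KO_ERRb_AF2M6, and Trim24 is level.

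The stretch around Nanog held 5 members. Dppa3 (122626424 to 122630271) was at 39.7 and 46.1 CPM in WT_mock, 142 and 131 in KO_mock and 86.3 and 77.9 in KO_ERRb_wt, higher in KO_mock than in WT_mock (1.67 ± 0.293, adjusted p = 0.00189). It was at 268 and 133 CPM in KO_ERRb_DBDm3, 202 and 151 in KO_ERRb_DBDm6, 183 and 269 in KO_ERRb_AF2M6 and 66.8 and 87.6 in KO_ERRg_wt, so that the mutant clones overlapped or exceeded KO_mock while the ERR gamma clones fell below it (−0.82 ± 0.289, adjusted p = 0.043). Its neighbour Gdf3, a TGF-beta family ligand, followed the chromosome, at 287 and 290.2 CPM in KO_mock, 225 and 148 in KO_ERRb_DBDm3, 141 and 135 in KO_ERRb_DBDm6 and 135 and 135 in KO_ERRb_AF2M6 and with a difference from the chromosome of −0.11 ± 0.0611, adjusted p = 0.179 in KO_ERRb_DBDm6. Phc1, a subunit of Polycomb repressive complex 1, did likewise, at 409 and 416 CPM in KO_mock, 301 and 263 in KO_ERRb_DBDm3, 213 and 209 in KO_ERRb_DBDm6 and 209 and 176 in KO_ERRb_AF2M6. Necap1, an endocytic accessory protein, escaped in both groups by 0.35 and 0.29, though the call in KO_ERRb_AF2M6 was lost without 12-1, 12-3 or 32-31. Pex5, the receptor for import into peroxisomes, was above its chromosome in KO_ERRb_AF2M6 (0.27 ± 0.0664, adjusted p = 0.00945), a call lost without the same clones. In KO_ERRb_DBDm6 Pex5 narrowly missed the threshold (0.18 ± 0.0665, adjusted p = 0.0562), and the direct comparison of these groups did not call it (−0.10 ± 0.147, adjusted p = 0.781).

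The list counts that follow are to be read against all 417 members, of which 18.7% escaped and 17% fell further in both groups (13.2% and 12.4% of all tested genes), and 86.3% were lower than KO_mock in KO_ERRb_DBDm6 and 88.7% in KO_ERRb_AF2M6 before the offset. Of 20 metabolic members, 8 escaped and 3 fell further in both groups, and 11 and 15 were lower than KO_mock in KO_ERRb_DBDm6 and KO_ERRb_AF2M6 before the offset (list medians −0.68 and −0.82, members −0.96 in each). In KO_ERRg_wt 12 of the 20 were above their chromosome and 3 below, against 26.1% and 18.5% of all members and 20% and 17% of all tested genes, with a list median of 0.32 against −0.018 for all members. Gapdh departed by 0.28 and 0.30 and Tpi1 by 0.57 and 0.55, so these glycolytic enzymes fell less than the chromosome. Hebp1, a heme-binding protein, departed by 1.53 and 0.75 and Aldh1l1 by 1.57 and 0.76, with Aldh1l1 at 23.2 and 20.9 CPM in KO_mock, 33.4 and 34.2 in KO_ERRb_DBDm6, 21.8 and 16.6 in KO_ERRb_AF2M6 and 94.4 and 88.4 in KO_ERRg_wt. The mitochondrial enzymes Hibadh, of valine breakdown, and Dguok, deoxyguanosine kinase, departed by 0.60 and 0.31 and 0.74 and 0.54. Abtb1, which departed by 0.66 and 0.57, was on the list and among the 8, though it is a BTB protein gene and not that of a metabolic enzyme. With WT_mock in place of KO_mock, Gapdh, Ldhb, Tpi1 and Abtb1 were still called higher in both groups. Hebp1, Aldh1l1, Hibadh and Dguok were not. Bcat1, the cytosolic branched-chain aminotransferase and the member of the list with the second highest level, was at 1066 and 996 CPM in KO_mock, 716 and 688 in KO_ERRb_DBDm6 and 678 and 450.2 in KO_ERRb_AF2M6 and did not escape.

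Of 15 signalling members, 1 escaped and 7 fell further than the chromosome in both groups, against 18.7% and 17% of all members. Before the offset 13 were lower than KO_mock in each, near the 86.3% and 88.7% of all members. Relative to the chromosome the list median was −0.28 in KO_ERRb_DBDm6 and −0.34 in KO_ERRb_AF2M6, against −0.0073 and −0.0079 for all members. Epha1, Wnt5b and Frmd4b, which fell furthest below the chromosome, were part of this list. It was written with earlier results known, so nothing is read from its contrast with all members. The kinase Wnk1, of ion transport control, departed by −0.39 and −0.34. The tetraspanin gene Cd9 was at 189 and 192 CPM in KO_mock, 152 and 156 in KO_ERRb_DBDm6, 126 and 122 in KO_ERRb_AF2M6 and 305 and 299 in KO_ERRg_wt, and Itpr1, a calcium channel of the endoplasmic reticulum, at 253 and 258 CPM in KO_mock, 114 and 116 in KO_ERRb_DBDm6, 122 and 84.4 in KO_ERRb_AF2M6 and 158 and 153 in KO_ERRg_wt. The phosphatase gene Ptpn6 was the escaping member of the list, by 0.68 and 0.78.

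Of 21 chromatin members 20 were lower than KO_mock in KO_ERRb_DBDm6 and 19 in KO_ERRb_AF2M6 (list medians −0.92 and −0.81), and 4 escaped while 2 fell further, so the share that escaped was near the 18.7% of all members. Chd4 departed by 0.50 and 0.55 and was at 865 and 860.2 CPM in KO_mock, 638 and 622 in KO_ERRb_DBDm6 and 643 and 658 in KO_ERRb_AF2M6, while Setd5, a SET-domain protein, departed by −0.27 and −0.21. Ruvbl1, an ATPase of several remodelling complexes, departed by 0.39 and 0.56 and Fam60a, a Sin3 complex subunit, by 0.36 and 0.43. Smarcad1, a remodeller, was at 393 and 419 CPM in KO_mock, 208 and 207 in KO_ERRb_DBDm6 and 229.8 and 231 in KO_ERRb_AF2M6. Among 19 members of genome maintenance and the cell cycle 17 were lower in each group before the offset (list medians −1.01 and −0.99), 3 escaped and 4 fell further, again near the shares of all members. Condensin subunit Ncapd2 departed by −0.25 and −0.38 and the spindle checkpoint protein gene Mad2l1 by −0.48 and −0.32, while Fancd2, of interstrand crosslink repair, escaped by 0.32 and 0.29 and Cdca3, a trigger of mitotic entry, was at 241 and 242 CPM in KO_mock, 149 and 125 in KO_ERRb_DBDm6 and 136 and 149.8 in KO_ERRb_AF2M6.

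In RNA processing 23 of 24 members were lower than KO_mock in each group (list medians −1.01 and −0.97), 4 escaped and 4 fell further, near the 18.7% and 17% of all members. Ybx3, a cold-shock domain RNA-binding protein, departed by 0.40 and 0.33, the splicing factor gene Tra2a by 0.34 and 0.57 and Thumpd3, a tRNA methyltransferase, by 0.25 and 0.22, and Zc3hav1 was the fourth. Nup205, a nuclear pore protein, was at 766 and 786 CPM in KO_mock, 402 and 394 in KO_ERRb_DBDm6 and 399 and 397 in KO_ERRb_AF2M6, Snd1 at 688 and 670.0 CPM in KO_mock, 355 and 366 in KO_ERRb_DBDm6 and 366 and 372 in KO_ERRb_AF2M6 and Hnrnpa2b1 at 689.7 and 699.7 CPM in KO_mock, 363 and 343 in KO_ERRb_DBDm6 and 344 and 355 in KO_ERRb_AF2M6, and these did not escape. The E3 ligase gene Mkrn1 was at 968 and 915 CPM in WT_mock, 665 and 693 in KO_mock, 327 and 365 in KO_ERRb_DBDm6 and 378 and 303 in KO_ERRb_AF2M6. Among 21 members of protein folding, transport and organelles 20 were lower in each group (list medians −1.0 and −0.95), 4 escaped and 3 fell further, near the 18.7% and 17% of all members. Cct7 departed by 0.29 and 0.25, the prolyl isomerase gene Fkbp9 by 0.54 and 0.41, Chchd3, of mitochondrial cristae, by 0.46 and 0.30 and the ubiquitin-conjugating enzyme gene Ube2h by 0.75 and 0.89. Phb2, a prohibitin, was at 758 and 739 CPM in KO_mock, 429 and 404 in KO_ERRb_DBDm6 and 435 and 425 in KO_ERRb_AF2M6, and Calu, a calcium-binding protein of the secretory pathway, at 611 and 636 CPM in KO_mock, 335 and 359 in KO_ERRb_DBDm6 and 322 and 318 in KO_ERRb_AF2M6. Tra2a stands in both the RNA processing and the genome maintenance list. The lists were written with earlier results known, so their counts describe these clones only.

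Clones 9-6 and 9-8 carry the same DNA-binding deficient construct and differed in the members by a median of −0.56 (382 of 417 lower in 9-8). The genes furthest above that pattern, chosen after their values were seen, were Rtkn, at 24.5 CPM in 9-6 and 122 CPM in 9-8, and Tcaf1, a channel-associated protein, at 5.65 and 11.1 CPM. Furthest below were Cntnap2, a neurexin family adhesion protein, at 19.1 and 3.82 CPM, and Rab11fip5, an effector of recycling endosomes, at 54.8 and 12.1 CPM.

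Members differed in both directions between knockout and wild type. In KO_mock against WT_mock 52 members were lower and 68 higher, against 19.4% and 18% of all tested genes, with a median of 0.068. The counts lower and higher were 20 and 15 without 5-2, 23 and 22 without 12-1, and 28 and 32 without 12-3, and 45 were higher without 5-5. The smallest p on the higher side belonged to Podxl, a sialomucin (15 and 16 CPM in WT_mock, 34 and 35.3 in KO_mock; 1.16 ± 0.136, adjusted p = 0.000277), Rasgef1a, a Ras exchange factor (1.08 ± 0.164, adjusted p = 0.000875), Srgap3 (0.87 ± 0.138) and the transcription factor gene Foxp1 (0.77 ± 0.124). On the lower side they were Cadps2, of vesicle exocytosis (23.9 and 22.4 CPM in WT_mock, 5.12 and 6.14 in KO_mock; −2.04 ± 0.202, adjusted p = 0.000118), the lysosomal protein gene Tmem106b (−0.88 ± 0.0997, adjusted p = 0.00021), Zfp800 (−0.89 ± 0.117) and Flnc, filamin C (−1.19 ± 0.163).

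With wild-type ERR beta put back, 4 members were lower and 0 higher in KO_ERRb_wt than in KO_mock, against 0.781% and 1.07% of all tested genes, with a median of −0.0048 and 53 members at an unadjusted p below 0.05. DESeq2 called 10 lower and 9 higher. The 4 were Rasgef1a (−0.93 ± 0.163, adjusted p = 0.0181), Podxl (−0.75 ± 0.135, adjusted p = 0.0205), Ccdc136 (−0.57 ± 0.126, adjusted p = 0.0474) and Tcf7l1, a repressor of Wnt target genes (−1.0 ± 0.224, adjusted p = 0.0495). The calls of Rasgef1a, Podxl and Ccdc136 were lost when any 1 clone of either group was left out. That of Tcf7l1 was lost without 12-1, 12-3 or 8-3. Bcl2l14, a BCL2 family gene, had the smallest p on the higher side (1.45 ± 0.34, adjusted p = 0.0558), at 34.2 and 33.2 CPM in WT_mock, 12.9 and 13.3 in KO_mock, 40.3 and 31.5 in KO_ERRb_wt and 34.3 and 30.02 in KO_ERRg_wt and at 8.16 and 2.98 CPM in KO_ERRb_DBDm3, 6.34 and 5.91 in KO_ERRb_DBDm6 and 6.28 and 3.61 in KO_ERRb_AF2M6. The next were Cadps2 (0.84 ± 0.199, adjusted p = 0.0573), the mitochondrial carrier Sfxn5 (0.56 ± 0.152, adjusted p = 0.0822) and Krcc1 (0.42 ± 0.115, adjusted p = 0.0857). Members stood near the KO_mock level in the clones with wild-type ERR beta. The shift of chromosome 6 was seen in the clones with altered ERR beta or with ERR gamma. Its depth differed between clones 9-6 and 9-8 of the same construct (medians −0.40 and −0.95). Chromosome-wide differences were not confined to these groups, since chromosome 14 was higher in both WT_mock clones (0.58 and 0.58). Whether the receptor forms played a part was not tested.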

How the data were processed

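Stranded total RNA depleted of ribosomal RNA was sequenced in single reads of 100 bases, per the labels' protocols. The authors deposited raw counts per gene and library, aligned to mm10 with STAR 2.7.8a per the submitters' processing notes and counted with featureCounts (2.0.10 in those notes, 2.0.1 in the file header). Per the file header, reads were assigned by strand to exons by gene name and a read overlapping several genes counted for each, so genes that share exons are uncertain: 38 of 400 matched members shared some and 15 over 10%.

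The 2 libraries of a clone were summed, giving 14 clones in 7 groups. Counts of 15238 genes passing edgeR's filter were fitted with edgeR 4.0.16 (R 4.3.3; TMM, quasi-likelihood, robust) over all groups, with Benjamini-Hochberg adjusted p-values below 0.05 called. Errors of fold changes are standard errors, with 2 clones per group. A further fit added, per clone and chromosome, the median log2 ratio to KO_mock of genes at 8 CPM or more as an offset, where a chromosome had at least 20 such genes. Log2 ratios used a prior count of 0.5. DESeq2 1.42.0, other scalings, other filters, a fit of libraries with a replicate block and leaving out each clone were alternatives. The code was tested on simulated data. Library totals of 21276790 to 30021667 counts set the counting precision. The labels name no batch.

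The members and lists were chosen with earlier results of these data known. The genes chosen by rule were the 12 escaping members and 8 members called lower with the largest smaller departure of the pair, the 6 with the highest level per kilobase, all imprinted and Nanog-neighbourhood members, the 4 most abundant and any escaping members of each other list, and the 4 with the smallest p each way in 3 comparisons. Scarna10, one of the 6, shares 87.1% of its exons with Gm28967 and Ncapd2 and is not reported further, and some other genes that the rule chose are not reported here. The replicate numbers in the labels number libraries within a clone, and the labels do not say whether same-numbered libraries of different clones were handled together. In KO_ERRb_DBDm6, same-numbered libraries of clones 10-24 and 10-26 differed by 3.33 and 4.72 times sampling noise. The libraries within 10-24 and within 10-26 differed by 6.42 and 8.16 times. This order was not seen in the other groups, and its cause was not tested.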

Additional observations from a re-analysis of the deposited data

Results flagged for a closer look

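In WT_mock, the members' median log2 ratio to KO_mock was −0.044 in library 2 of clone 5-5, and −0.077, −0.072 and −0.074 in the other 3 libraries of the group. The gap of that library to its nearest neighbour was large for the range of a group of 4. Such a test marks about 1 in 20 groups of 4 independent values by chance. Here the libraries came 2 from each clone and every group with 4 libraries was tried, so that rate does not hold. The cause was not tested.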

How the results depend on the processing

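Over the alternatives for medians and counts, 252 values were labelled as kept and 106 as moved, and no called value changed direction. A median was kept if its change was below the larger standard deviation between clones of the groups compared. A count was kept within a fixed ratio. Kept values could therefore differ in size. The KO_ERRb_DBDm3 median of −0.65 counted as kept at −0.95 without 9-6 and at −0.40 without 9-8. In KO_ERRb_AF2M6, a change from −0.964 to −0.959 without 12-1 counted as moved. Medians near 0 (KO_ERRb_wt against KO_mock, KO_ERRb_DBDm6 against KO_ERRb_AF2M6) could take either sign. Leaving out 1 clone at a time gave 20 to 46 lower and 15 to 45 higher in KO_mock against WT_mock, 0 to 4 lower and 0 to 1 higher in KO_ERRb_wt, 186 to 361 lower and 4 to 10 higher in KO_ERRb_DBDm3. It gave 313 to 325 lower and 4 to 7 higher in KO_ERRb_DBDm6, 336 to 342 lower and 3 to 4 higher in KO_ERRb_AF2M6, 107 to 127 lower and 13 to 17 higher in KO_ERRg_wt (against KO_mock). Between KO_ERRb_DBDm6 and KO_ERRb_AF2M6 it gave 0 to 1 lower and 0 to 7 higher. Relative to the chromosome it gave 15 to 96 lower and 20 to 98 higher in KO_ERRb_DBDm3, 56 to 60 lower and 72 to 84 higher in KO_ERRb_DBDm6, 46 to 66 lower and 53 to 73 higher in KO_ERRb_AF2M6, 47 to 48 lower and 68 to 80 higher in KO_ERRg_wt, 47 to 67 escaping members and 36 to 52 called lower in both. The members' median ranged from −0.97 to −0.94 in KO_ERRb_DBDm6, from −0.96 to −0.95 in KO_ERRb_AF2M6, and from −0.014 to 0.0052 between the 2 groups. A lone clone is assumed to vary like the other groups. RLE scaling put the members' median at 0.087 in KO_mock against WT_mock, −0.96 in KO_ERRb_AF2M6 and −0.43 in KO_ERRg_wt, and DESeq2 at 0.087, −0.96 and −0.43. TMM without chromosomes 6, 8 and 14 put it at 0.049, −1.01 and −0.45, and at −1.01 in KO_ERRb_DBDm6. DESeq2 called 10 lower and 9 higher in KO_ERRb_wt, and 1 lower and 3 higher between KO_ERRb_DBDm6 and KO_ERRb_AF2M6. With no filter on low counts 1 member was higher in KO_ERRb_wt. For members with a mean of at least 20 CPM, 33 were lower in KO_mock than in WT_mock (median 0.094), 2 lower in KO_ERRb_wt, 3 higher in KO_ERRb_DBDm6, 3 in KO_ERRb_AF2M6 and 13 in KO_ERRg_wt (median −0.43), with a median of −0.020 between KO_ERRb_DBDm6 and KO_ERRb_AF2M6, fewer members being counted. In a fit of single libraries with a replicate block (without KO_ERRg_wt), which treats libraries of a clone as replicates, 87 members were lower and 109 higher in KO_mock than in WT_mock, 29 and 24 in KO_ERRb_wt, and 9 and 14 between KO_ERRb_DBDm6 and KO_ERRb_AF2M6. It gave 12 higher in KO_ERRb_DBDm3, and 111 above and 101 below the chromosome there. Differences between libraries 1 and 2 correlated between clones by −0.37 to 0.75, above 0.1 in 25 of 66 pairs of clones. Escape counted by size gave 11 members above 0 and 27 above −0.25 in both groups. Against WT_mock the clone medians were −0.00090 (5-2), 0.00090 (5-5), 0.068 (12-1), 0.064 (12-3), 0.048 (8-3), 0.053 (8-4), −0.91 (10-24), −0.89 (10-26), −0.92 (32-25), −0.91 (32-31), −0.31 (14-1-10) and −0.31 (14-11). Where no cause is given, the cause was not tested. Counting limits the members with few reads most, such as Gng12 at 3.85 CPM in a KO_mock clone.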

Other observations

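Other listed members that fell further than the chromosome in both KO_ERRb_DBDm6 and KO_ERRb_AF2M6 were not among the genes named by rule. Foxm1, a transcription factor of mitotic genes, was at 118 and 120.3 CPM in KO_mock, 43.7 and 43.3 in KO_ERRb_DBDm6 and 43.5 and 42.7 in KO_ERRb_AF2M6, with log2 differences from the chromosome of −0.50 and −0.51. Rad18, a ubiquitin ligase of replication bypass, departed by −0.24 and −0.22. The growth-signalling kinase Braf departed by −0.26 and −0.24 and the transcription factor gene Mitf by −0.91 and −0.84. Among metabolic genes, Bpgm, which makes a bisphosphoglycerate that tunes oxygen release, departed by −0.45 and −0.54 and Impdh1, of guanine nucleotide synthesis, by −0.70 and −0.45. Polr1a, the largest subunit of RNA polymerase I, departed by −0.56 and −0.47 and the nuclear pore protein gene Nup210 by −0.39 and −0.38, at 427 and 418 CPM in KO_mock, 177 and 155 in KO_ERRb_DBDm6 and 167 and 167 in KO_ERRb_AF2M6. With WT_mock in place of KO_mock, Foxm1, Braf, Bpgm, Polr1a and Nup210 were called lower in both groups, but Rad18, Mitf and Impdh1 were not. Mitf and Impdh1 were called higher in KO_mock than in WT_mock, with log2 fold changes of 1.41 and 0.75.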
